A study of Mus musculus with 8 samples.

Results

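The genes described here encode proteins of the inner hair cell ribbon synapse, and the set was chosen by gene symbol: Otof, Slc17a8, Cabp2, Cacna1d, Cacnb2, Ctbp2, Bsn, Pclo and Rims2. All 9 were found among the 21895 genes of the deposited table. RNA-seq of whole cochlea was compared between 4 miR-29a WT libraries (WT1 to WT4) and 4 miR-29a KO libraries (KO1 to KO4). The KO mice lacked miR-29a in all tissues, and both groups came from heterozygous breeding on the C57BL/6 background and could include females and males. The methods give the age of the mice as 2 months and the series record gives 21 days, so the age at collection could not be settled. Mature miR-29a was not analysed here, and the deletion was therefore not checked in these libraries. The labels do not say whether each library came from a separate animal, so the p-values measure only the spread between these libraries, which may be technical.

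Inner hair cells turn sound-driven changes of membrane potential into glutamate release onto the fibres of spiral ganglion neurons. Release takes place at active zones that hold an electron-dense ribbon, to which synaptic vesicles are tethered close to clustered L-type calcium channels. Calcium entering through these channels is sensed by otoferlin, and the scaffold proteins Bassoon, Piccolo, RIM2 and the ribbon protein RIBEYE hold the channels and vesicles in place. Several of these genes, in particular Bsn, Pclo, Rims2 and Cacna1d, are also widely used by neurons of the brain.

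The molecule deleted in the KO mice binds mRNAs mainly through its seed, bases 2 to 8 of the mature strand, shown here in capitals because the search of the members below used it. The RefSeq record places it on the minus strand of GRCm38.p6 at chr6:31062673-31062694.

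mmu-miR-29a-3p: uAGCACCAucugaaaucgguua

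The reverse complement of the seed, TGGTGCT, was looked for on the sense strand of the longest annotated 3′-UTR of each gene (GENCODE M21). Of the 9 members, 1 (11.1%) held it, Pclo, against 15.5% of 14832 tested genes with an annotated 3′-UTR. The match lay at bases 2279 to 2285 of the 4573-base 3′-UTR of the longest annotated Pclo transcript, and the surrounding 30 bases, on the plus strand of GRCm38 at chr5:14861153-14861182, are given with the match in capitals.

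Pclo 3′-UTR: tactcgatctgcTGGTGCTttccatggatg

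The 3′-UTRs of 2 other annotated Pclo transcripts, of 1950 and 1961 bases, did not contain these letters. A match of this kind is a feature of the annotated sequence and says nothing of binding. The 3′-UTRs searched in the other members were between 204 bases (Cabp2) and 3983 bases (Bsn) long.

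The libraries differed in their content of other tissues, which whole-cochlea RNA carries. Values are FPKM (fragments per kilobase of transcript, scaled to the mapped fragments of the library), which carry no counts, but the commonest ratio between low values put the depth of the libraries at 0.946 to 1.16 times that of WT3. Hair cell RNA was present in every library: Pou4f3, a transcription factor of hair cells, was at 0.974 to 4.02 FPKM, and Slc26a5, the motor protein of outer hair cells, at 1.42 to 4.04 FPKM. The inner hair cell itself could not be checked by separate markers, because its best known genes, Otof and Slc17a8, are members of the set. The summed level of 15 hair cell reference genes ranged from 33.5 to 67.1 FPKM in WT and from 40.4 to 54.5 FPKM in KO libraries, and none of the 15 was at 0 throughout. WT1 stood apart, with the lowest mean log2 level of these genes (0.501, against 0.932 to 1.63 in the other 7 libraries) and the highest mean log2 level of 12 marrow and blood markers. Of the reference genes, however, Cdh23 was highest in WT1, at 5.74 FPKM against 2.36 to 3.65 FPKM in the other libraries. Barhl1 was at 0.943, 0.751 and 0.876 FPKM in WT2, WT4 and KO4 and at most at 0.402 FPKM elsewhere. S100a9, a neutrophil protein, was at 3458 FPKM in WT1 and at 9.88 FPKM in WT3. The summed marrow and blood markers were at 488 to 16376 FPKM in WT and at 6372 to 16617 FPKM in KO libraries, with none of the 12 at 0 throughout. A second difference cut across genotype. Gabra6, a GABA receptor subunit of cerebellar granule cells, was at 23.6 FPKM in WT2, 10.7 in WT4 and 16.4 in KO4, and at most at 2.54 in the other 5 libraries, with 0 in WT1. Pcp2 of Purkinje cells and Gad1 of inhibitory neurons were likewise higher in WT2, WT4 and KO4 than in any other library. The 10 brain markers summed to 49.4 to 199 FPKM in WT and to 69.5 to 141 FPKM in KO libraries, and none was at 0 throughout. The part these differences have in each result below was not tested. In bulk RNA, fewer cells of a type and less RNA per cell cannot be told apart.

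In the comparison of genotypes over all 8 libraries, none of the 9 ribbon synapse genes passed the test. On the log2(FPKM + 0.1) scale, 7 of the 9 had a KO over WT fold change below 0 and the median of the 9 was -0.23, while 33.5% of all 14990 tested genes were below 0 and the median of all tested genes was 0.10. The limma test called 0 of the 9 at an unadjusted p under 0.05, the threshold of the study, at which 5.12% of all tested genes were called in either direction, 4.61% as higher and 0.507% as lower in KO. None of the 14990 tested genes passed after Benjamini-Hochberg adjustment with limma, where 767 genes had an unadjusted p under 0.05. The WT and KO values of all 9 members overlapped, whereas those of 3.5% of tested genes did not. All 9 genes passed the filter on low values, a mean of at least 0.5 FPKM.

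**Figure D1:**
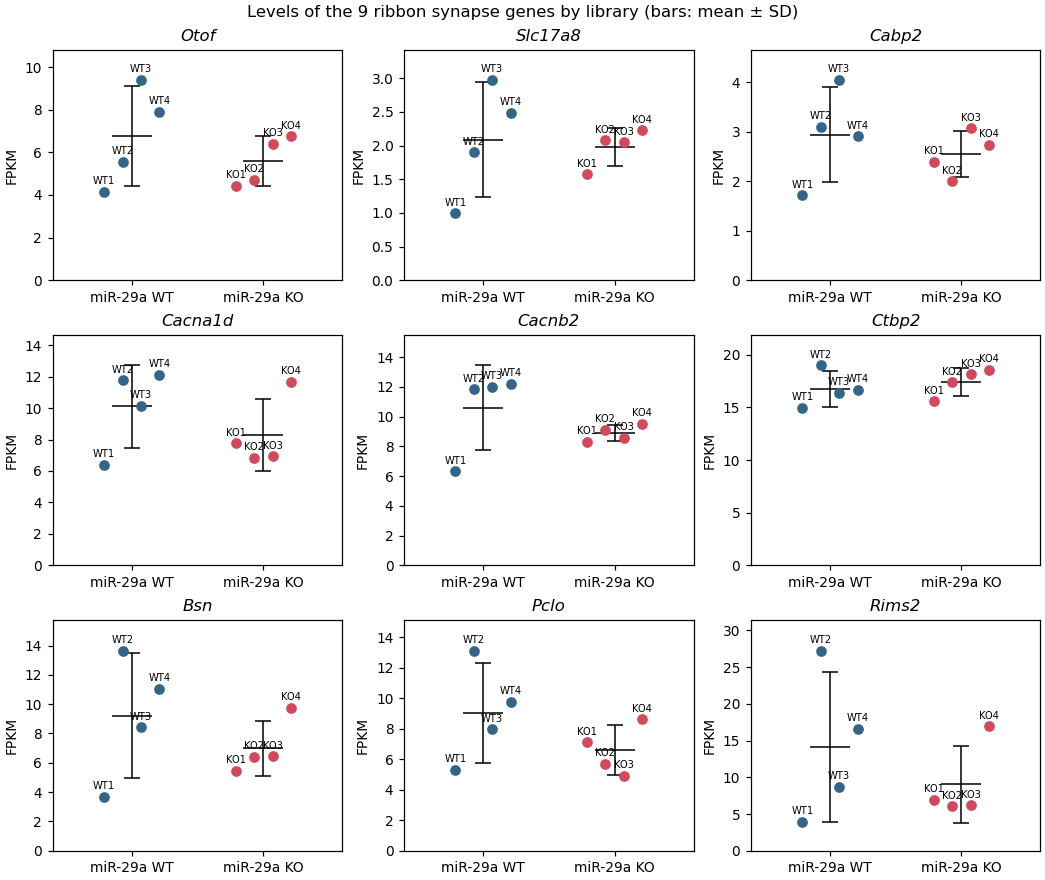
FPKM (y axis, from 0) of each of the 9 genes in the 4 miR-29a WT and 4 miR-29a KO libraries, with bars for the mean ± SD. The WT and KO points of every gene overlap, WT1 is the lowest WT library for all 9 genes, and Rims2 is highest in WT2, WT4 and KO4.

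The first group of members releases the transmitter or tunes its release, and it gave the lowest levels of the set. Otof (ENSMUSG00000062372, chr5:30367062-30461932) encodes otoferlin, the calcium sensor of vesicle fusion in inner hair cells, and its loss causes deafness. Otof was at 4.16, 5.56, 9.40 and 7.90 FPKM in WT1 to WT4. In KO1 to KO4 it was at 4.44, 4.72, 6.41 and 6.76 FPKM. WT3 and WT4 lay above all KO libraries, and WT1 lay below all of them. The mean was 6.75 ± 2.34 FPKM in WT and 5.58 ± 1.17 FPKM in KO (SD, n = 4 each), and the log2 fold change was -0.23 ± 0.28 (SE; limma adjusted p = 0.973, exact permutation p = 0.457). Its 95% interval, -0.86 to 0.41, included changes of either sign.

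Slc17a8 (ENSMUSG00000019935, chr10:89574020-89621253) encodes VGLUT3, the transporter that fills the vesicles of inner hair cells with glutamate. It was the least abundant member, at 0.995, 1.90, 2.97 and 2.49 FPKM in WT1 to WT4. The KO libraries, at 1.57, 2.08, 2.05 and 2.23 FPKM, all lay within the range of the WT libraries. The group means were 2.09 ± 0.852 FPKM and 1.98 ± 0.284 FPKM, and the log2 fold change was 0.02 ± 0.33 (limma adjusted p = 0.999, exact permutation p = 1), with an interval of -0.74 to 0.77. Its sign turned under median-ratio and quantile scaling. Cabp2 (ENSMUSG00000024857, chr19:4081578-4087340) encodes a calmodulin-like protein that limits inactivation of the hair cell calcium channel. Its levels in WT1 to WT4 were 1.72, 3.10, 4.05 and 2.91 FPKM. Its levels in KO1 to KO4 were 2.40, 2, 3.07 and 2.74 FPKM, all inside the WT range. The log2 fold change of Cabp2 was -0.16 ± 0.28 (limma adjusted p = 0.983, exact permutation p = 0.571).

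The calcium channel of the ribbon synapse was represented by its pore and by its auxiliary subunit. Cacna1d (ENSMUSG00000015968, chr14:30039939-30521627, where GENCODE M21 ends the gene at 30491455) encodes the pore-forming subunit of the L-type channel that carries nearly all presynaptic calcium current of inner hair cells. It was at 6.39, 11.8, 10.1 and 12.1 FPKM in WT1 to WT4 and at 7.76, 6.85, 6.94 and 11.7 FPKM in KO1 to KO4. Outside WT1 the WT libraries were at 10.1 FPKM or more, and of the KO libraries only KO4 reached that level. Cacnb2 (ENSMUSG00000057914, chr2:14603088-14987908) encodes a beta subunit that brings the channel to the membrane. It was at 6.31, 11.8, 12 and 12.2 FPKM in WT1 to WT4, so that 3 WT libraries lay close together and WT1 lay far below them. The KO libraries, at 8.32, 9.09, 8.59 and 9.52 FPKM, fell in the gap between WT1 and the other WT libraries. Over all 8 libraries the log2 fold change was -0.27 ± 0.26 for Cacna1d (limma adjusted p = 0.962, exact permutation p = 0.429) and -0.20 ± 0.22 for Cacnb2 (adjusted p = 0.968, exact permutation p = 0.514).

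The remaining members build the ribbon and the active zone. Ctbp2 (ENSMUSG00000030970, chr7:132987563-133124807, where GENCODE M21 ends the gene at 133124354) was the most abundant and the steadiest member. It gives rise to the transcriptional corepressor CtBP2 and, from a separate first exon, to RIBEYE, the main protein of the ribbon. In GENCODE M21, a Ctbp2 transcript of 3604 bases encodes 988 residues, the length class of RIBEYE, and one of 2321 bases encodes 445 residues. FPKM are given per gene, so the forms were not separated here. Ctbp2 was at 14.9, 19, 16.4 and 16.7 FPKM in WT1 to WT4 and at 15.6, 17.4, 18.1 and 18.5 FPKM in KO1 to KO4. The highest of the 8 libraries was 1.27 times the lowest, and the log2 fold change was 0.06 ± 0.13 (limma adjusted p = 0.983, exact permutation p = 0.543), with an interval of -0.23 to 0.34. Its sign, too, turned under median-ratio and quantile scaling.

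The sequence at the start of the RIBEYE-type transcript is shown, with those of a hair cell gene (Slc17a8) and a scaffold gene (Bsn), because their CpG content can be compared. The RefSeq windows (GRCm38.p6) run from 250 bases before to 50 bases after a gene's start, here on the minus strand at chr7:133015198-133015497 for Ctbp2, chr10:89621200-89621499 for Slc17a8 and chr9:108190334-108190633 for Bsn. Capitals mark every CpG dinucleotide.

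Ctbp2: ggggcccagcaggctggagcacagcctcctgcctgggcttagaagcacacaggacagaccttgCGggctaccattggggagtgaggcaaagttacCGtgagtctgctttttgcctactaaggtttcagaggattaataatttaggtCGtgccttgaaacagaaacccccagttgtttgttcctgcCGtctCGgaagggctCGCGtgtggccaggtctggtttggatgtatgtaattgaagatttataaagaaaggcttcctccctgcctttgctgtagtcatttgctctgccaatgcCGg
Slc17a8: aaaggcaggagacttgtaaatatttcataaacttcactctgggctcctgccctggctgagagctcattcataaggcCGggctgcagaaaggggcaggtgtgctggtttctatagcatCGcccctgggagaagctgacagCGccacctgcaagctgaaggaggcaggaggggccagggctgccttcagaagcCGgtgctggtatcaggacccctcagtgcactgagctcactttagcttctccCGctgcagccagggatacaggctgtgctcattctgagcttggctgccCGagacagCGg
Bsn: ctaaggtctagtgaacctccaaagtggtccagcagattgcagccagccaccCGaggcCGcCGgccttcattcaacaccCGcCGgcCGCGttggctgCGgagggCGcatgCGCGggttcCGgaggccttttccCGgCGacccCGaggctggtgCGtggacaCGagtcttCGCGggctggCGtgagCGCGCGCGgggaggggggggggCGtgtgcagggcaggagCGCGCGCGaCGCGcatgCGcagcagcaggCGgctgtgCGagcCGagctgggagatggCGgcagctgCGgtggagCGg

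The Ctbp2 window held 8 CpG, the Slc17a8 window 7 and the Bsn window 38, and the median of 32851 windows was 7. Windows were found for 7 of the 9 members, 12 windows in all, and those of Cabp2 held 4 and 6 CpG while that of Pclo held 35. Cacna1d and Cacnb2 each had a CpG-rich window, with 63 and 35 CpG, and a second window with 4. The motif TATAAA, counted on both strands with overlaps, was found in the Ctbp2 window shown and in the CpG-poor Cacna1d window and in no other member window, and in 13.6% of all windows.

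Bsn (ENSMUSG00000032589, chr9:108096022-108190384) encodes Bassoon, which anchors the ribbon at the active zone. It was at 3.68, 13.7, 8.42 and 11 FPKM in WT1 to WT4 and at 5.43, 6.39, 6.43 and 9.73 FPKM in KO1 to KO4. Pclo (ENSMUSG00000061601, chr5:14514918-14863459) encodes Piccolo, a large scaffold related to Bassoon, of which ribbon synapses use a short form. It was at 5.32, 13.1, 7.96 and 9.78 FPKM in WT1 to WT4 and at 7.10, 5.69, 4.92 and 8.63 FPKM in KO1 to KO4. For both genes WT2 was the highest of all libraries and KO4 the highest KO library. The log2 fold change of Bsn was -0.27 ± 0.39 (limma adjusted p = 0.977, exact permutation p = 0.571). That of Pclo, the member with the seed match, was -0.41 ± 0.29 (limma adjusted p = 0.947, exact permutation p = 0.257), the lowest p of the 9 by both tests, with an interval of -1.08 to 0.26.

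Rims2 (ENSMUSG00000037386, chr15:39198261-39684372) encodes RIM2, which holds calcium channels at the release site. It varied more than any other member, at 3.98, 27.3, 8.67 and 16.6 FPKM in WT1 to WT4 and at 6.92, 6.04, 6.20 and 17.0 FPKM in KO1 to KO4. The highest library was 6.86 times the lowest. The log2 fold change of -0.45 ± 0.59 (limma adjusted p = 0.974, exact permutation p = 0.571) was the largest in size of the 9, and its interval of -1.79 to 0.88 was the widest. It rested on WT2, without which it was -0.03. The exact permutation test, two-sided, cannot give a p below 0.0286 with 4 against 4 libraries.

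By mean FPKM over the 8 libraries, the order of the members was Ctbp2 (17.1), Rims2 (11.6), Cacnb2 (9.74), Cacna1d (9.20), Bsn (8.10), Pclo (7.82), Otof (6.17), Cabp2 (2.75) and Slc17a8 (2.04). Otof was above Cabp2 in 8 of 8 libraries, and this was the only neighbouring pair in that order with no exception. Rims2 was above Cacnb2 in only 3 of 8 libraries, although its mean was higher. The 4 genes from Cacnb2 to Pclo differed in mean by less than the SD of any of them over the 8 libraries, which was between 2.11 FPKM for Cacnb2 and 3.27 FPKM for Bsn.

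The comparison of genotypes depended on single WT libraries, in both directions. Without WT2 no member was called, where 577 of 14996 tested genes were. The median of the 9 was then -0.11, and Rims2 was at -0.03, Bsn at -0.04 and Pclo at -0.21. The median of all tested genes was 0.14 in that fit, and all 9 members were below it. Without WT3 no member was called either, where 596 of 15017 tested genes were. Otof was then at -0.05 and the median of the 9 at -0.13, while that of all tested genes was 0.13, with 8 of the 9 members below it. Without WT1, 4 of the 9 members were called by limma, all lower in KO, and 8 of the 9 had a fold change below 0, with a median of -0.43. Cacnb2 had a log2 fold change of -0.43 ± 0.11 (limma adjusted p = 0.145), and its WT2 to WT4 values did not overlap those of the KO libraries. Bsn changed by -0.66 ± 0.23 (limma adjusted p = 0.188), Pclo by -0.64 ± 0.24 (adjusted p = 0.201) and Cacna1d by -0.48 ± 0.20 (adjusted p = 0.243). Rims2 at -0.94 ± 0.46 (adjusted p = 0.297), Otof at -0.43 ± 0.23 (adjusted p = 0.331), Cabp2 at -0.38 ± 0.21 (adjusted p = 0.343) and Slc17a8 at -0.28 ± 0.22 (adjusted p = 0.515) were not called. Ctbp2 stayed at 0.00 ± 0.11. The background was higher as well without WT1, with 19.5% of 15019 tested genes called in either direction, 7.4% called as lower in KO, 18.3% with no overlap between groups and 53.3% below 0.

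Of the 3 WT libraries that remain without WT1, WT2 and WT4 had high Gabra6, as had 1 of the 4 KO libraries. The 5 libraries with low Gabra6 (WT1, WT3 and KO1 to KO3) were therefore compared as well, a choice made after their values were seen. In them 0 of the 9 members were called, where 4.27% of 14908 tested genes were, and 5 of the 9 were below 0. The median of all tested genes in that fit was 0.22, and all 9 members were below it. The log2 fold changes of Bsn and Rims2 were then 0.12 ± 0.39 and 0.12 ± 0.37, of the opposite sign, and that of Cacnb2 was -0.01 ± 0.32. The WT side of this comparison rests on only WT1 and WT3, whose mean log2 levels of the marrow and blood markers were 9.44 and 2.37. Without WT1, that level was 2.37 to 6.84 in WT and 7.72 to 9.035 in KO libraries, with no overlap. Cacnb2 was at 11.8, 12 and 12.2 FPKM in WT2, WT3 and WT4, where Gabra6 was at 23.6, 1.34 and 10.7 FPKM. The parts of brain and marrow content in the changes of the members were not tested.

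**Figure D2:**
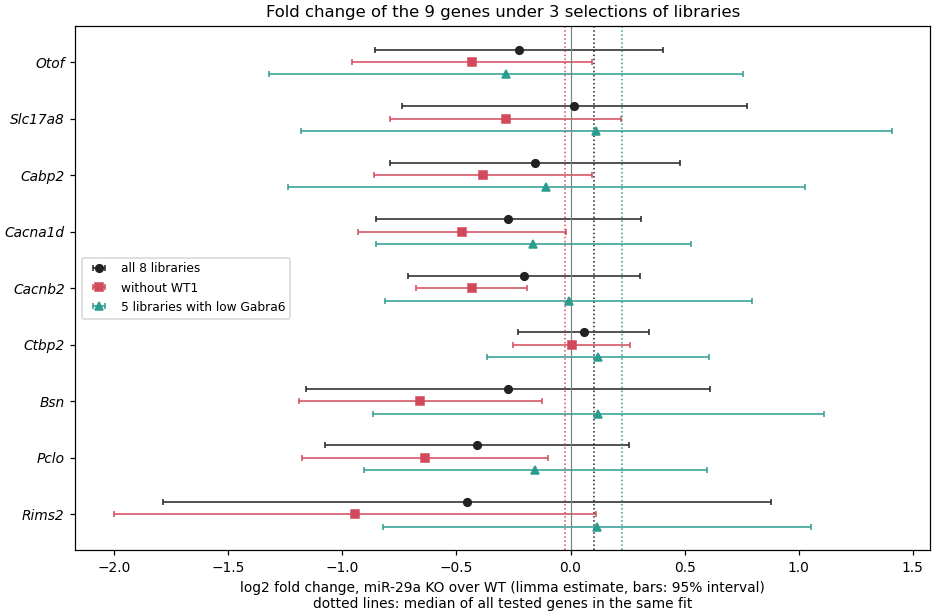
Log2 fold change of KO over WT (x axis, limma estimate with 95% interval) for the 9 genes (y axis) with all 8 libraries, without WT1, and in the 5 libraries with low Gabra6; dotted lines mark the median of all tested genes in each fit. Every interval with all 8 libraries and with the 5 libraries includes 0, and without WT1 those of Cacna1d, Cacnb2, Bsn and Pclo lie below 0.

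The members did not vary as 1 group across the libraries. Otof, Slc17a8 and Cabp2 varied together over all 8 libraries, with Pearson r over 8 libraries of 0.87 between Otof and Cabp2, 0.86 between Otof and Slc17a8 and 0.81 between Slc17a8 and Cabp2. Slc17a8 and Cabp2 had a Spearman rho of 0.55, and r of 0.63 without WT1, so this link was in part that of WT1, while Otof kept 0.92 with Slc17a8 and 0.82 with Cabp2. Rims2, Bsn, Pclo and Cacna1d formed another such set, with r of 0.95 between Bsn and Rims2, 0.94 between Pclo and Rims2 and 0.93 between Cacna1d and Rims2. Across the 2 sets r was between 0.37 (Otof and Pclo) and 0.71 (Slc17a8 and Bsn), below the values within each set, but the Spearman rho across them, up to 0.71 (Bsn and Cabp2), overlapped that within the first set. Without WT1, r across the sets was 0.10 to 0.54. With the genotype means subtracted, r was 0.91 for Otof and Slc17a8, 0.95 for Bsn and Rims2 and 0.28 for Otof and Pclo. Cacnb2 correlated with both sets (0.91 with Bsn and 0.86 with Slc17a8). Ctbp2 had r of at most 0.73 with any member. These values describe 8 libraries that share their tissue makeup and were not tested.

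**Figure D3:**
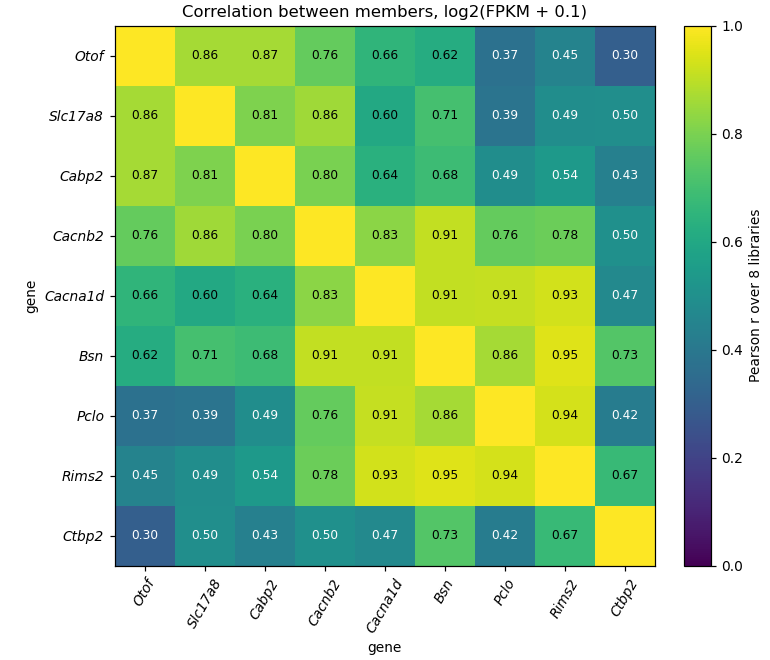
Pearson r over the 8 libraries between each pair of the 9 genes (both axes) on the log2(FPKM + 0.1) scale, on a color scale from 0 to 1. Otof, Slc17a8 and Cabp2 form a block of 0.81 to 0.87, Cacna1d, Bsn, Pclo and Rims2 a block of 0.86 to 0.95, and the lowest value is that of Otof and Ctbp2 (0.30).

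The levels of the first set correlated with those of the other hair cell genes. How many of all genes do so was not counted, so the relation is not shown to be particular to hair cell genes. The correlations were not repeated without Cdh23 and Barhl1. The mean log2 level of the 15 hair cell reference genes correlated with Slc17a8 at r = 0.97 (Spearman rho = 0.88; exact permutation p = 0.000248 and 0.00724, adjusted over 27 relations 0.0067 and 0.0391). For Otof r was 0.90 and rho 0.98 (exact permutation p = 0.00129 and 0.000397, adjusted 0.0116 and 0.0107). For Cabp2 r was 0.87 and rho 0.81 (exact permutation p = 0.00444 and 0.0218, adjusted 0.024 and 0.0735). Without WT1 and KO1, the libraries farthest from the median of the score, r was 0.84 for Slc17a8, 0.99 for Otof and 0.81 for Cabp2. Within genotypes r was 0.97, 0.94 and 0.88. Cacnb2 had r = 0.86 and rho = 0.81 (exact permutation p = 0.0061 and 0.0218, adjusted 0.0275 and 0.0735), but 0.51 without WT1 and KO1, so that relation rested on those libraries. Rims2 (r = 0.57, rho = 0.48), Pclo (0.42, 0.33) and Ctbp2 (0.59, 0.31) had adjusted exact permutation p of 0.187 or more for both coefficients. Bsn (0.77, 0.64) and Cacna1d (0.66, 0.60) had adjusted exact permutation p of 0.069 and 0.131 for r. Slc17a8 and Cacnb2 also correlated with the mean log2 level of 13 spiral ganglion neuron markers, at r = 0.96 and 0.89 (rho = 0.88 and 0.90; exact permutation p = 0.00067 and 0.00298, adjusted 0.00904 and 0.0201; for rho 0.00724 and 0.00456, both adjusted to 0.0391), and at 0.78 and 0.70 without WT1 and WT3. For Cacnb2 the rank correlation with the 12 marrow and blood markers was -0.90 and r was -0.76 (exact permutation p = 0.00456 and 0.0267, adjusted 0.0391 and 0.069). No other of the 27 relations had an adjusted p under 0.05 for either coefficient.

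Set against the hair cell reference genes, the spread of 8 of the 9 members became smaller. The share of all genes for which it does so was not counted. The SD of the log2 level over the 8 libraries fell from 0.448 to 0.127 for Slc17a8, from 0.409 to 0.178 for Otof, from 0.376 to 0.192 for Cabp2 and from 0.325 to 0.189 for Cacnb2 when each library's hair cell score was subtracted. It was smaller in the second set too, from 0.601 to 0.397 for Bsn, from 0.389 to 0.315 for Cacna1d, from 0.937 to 0.787 for Rims2 and from 0.476 to 0.463 for Pclo. For Ctbp2, which did not follow the score, it rose from 0.122 to 0.313. The fall in the second set depended on the reference. With the 7 outer hair cell markers instead, the SD rose for Cacna1d (to 0.412), Pclo (to 0.562) and Ctbp2 (to 0.345), and fell for the remaining members. With the hair cell reference genes without Cdh23 and Barhl1, that of Pclo rose to 0.494. Relative to all 15 hair cell reference genes, the KO minus WT difference was -0.21 for Otof, 1.26 ± 0.11 in KO against 1.47 ± 0.18 in WT (SD, n = 4; exact permutation p = 0.114). On this scale it was 0.03 for Slc17a8 (exact permutation p = 0.8), -0.14 for Cabp2 (p = 0.314, exact permutation) and -0.19 for Cacnb2 (p = 0.171, exact permutation). For Otof it was -0.17 relative to the outer hair cell markers (exact permutation p = 0.286). Without Cdh23 and Barhl1 in the reference, a run not planned beforehand, it was -0.22 (exact permutation p = 0.0571). None of the 9 had groups that did not overlap, and the exact permutation p of the other 5 members was between 0.229 and 0.857. In the fit scaled to the hair cell reference genes, the groups of only 410 of 14990 tested genes did not overlap. Without WT1 the relative difference of Cacnb2 was -0.18 (exact permutation p = 0.286) and no member reached an exact permutation p under 0.2. Without WT2, Otof was at -0.29 with no overlap between groups (exact permutation p = 0.0286, the smallest this design allows). Among all members and settings on the relative scale, only this test had a p under 0.05, and it was not adjusted. The share of all genes with no overlap in that setting was not counted.

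The second set was high where cerebellar markers were high. In WT2, WT4 and KO4, Rims2 was at 16.6 to 27.3 FPKM and in the other 5 libraries at 3.98 to 8.67 FPKM, a ratio of means of 3.19. The ratio was 1.89 for Bsn, 1.70 for Pclo and 1.56 for Cacna1d, and each of these genes was higher in all 3 libraries than in any of the other 5. Otof (ratio 1.16), Slc17a8 (1.14), Cabp2 (1.10), Cacnb2 (1.26) and Ctbp2 (1.10) overlapped between the same libraries. The ratio of Rims1, the paralogue of Rims2, was 3.23. The libraries were set apart here by Gabra6 and not by the study, and fall into separate clusters, so no correlation and no test is given. How many of all genes separate these libraries in the same way was not counted.

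**Figure D4:**
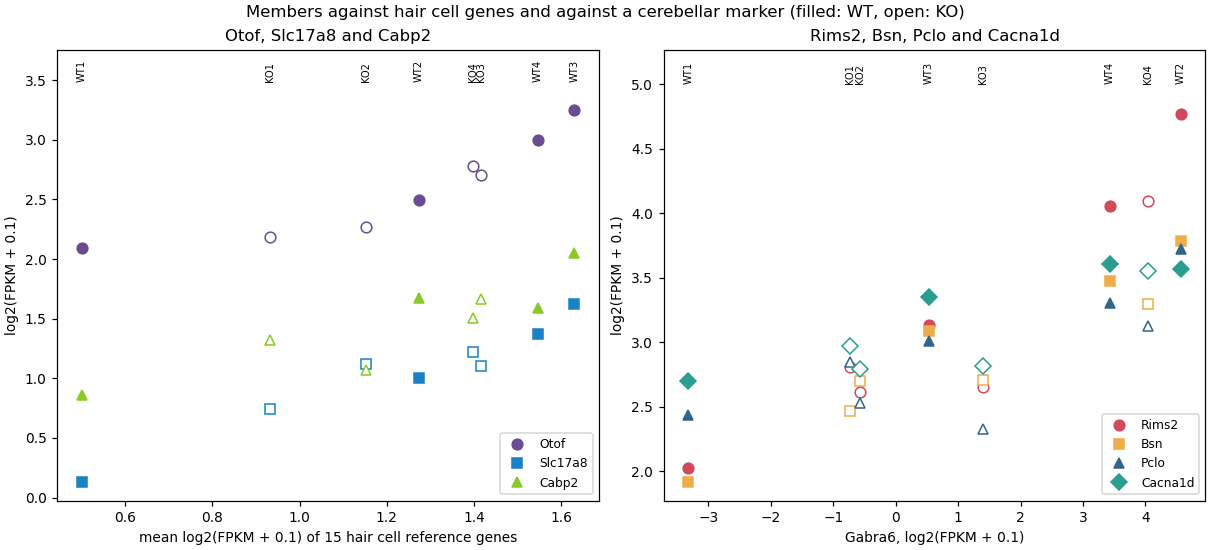
Left, log2(FPKM + 0.1) of Otof, Slc17a8 and Cabp2 (y axis) against the mean log2(FPKM + 0.1) of 15 hair cell reference genes (x axis). Right, log2(FPKM + 0.1) of Rims2, Bsn, Pclo and Cacna1d against that of Gabra6; each point is a library (filled WT, open KO), Otof climbs with the hair cell score, and WT2, WT4 and KO4 lie at the upper right of the second panel.

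The genes whose pattern was most like that of a member were named for 1 member of each set, by Pearson r over the 8 libraries among 14107 genes with a mean of at least 1 FPKM. For Otof these were Grxcr1 (r = 0.99), a hair bundle gene that is also among the reference genes, Trmt2b (0.98), Otog (0.97), which encodes the tectorial membrane protein otogelin, and Sema3f (0.97). Grxcr1 was at 0.565, 0.843, 1.76 and 1.48 FPKM in WT1 to WT4 and at 0.715, 0.710, 1.03 and 1.12 FPKM in KO1 to KO4, in nearly the order of Otof. For Bsn they were Myt1l (r above 0.99, at 11.1 FPKM in WT2 and 2.56 FPKM in WT1), Slc8a2, Slc9a5 and Elmod1, with r of 0.99 or more. Myt1l encodes a neuronal transcription factor and Slc8a2 a sodium-calcium exchanger of neurons.

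Each of 7 members was also compared with its paralogues, related genes of the same family. Bsn and Pclo were not compared in this way. Slc17a8 made up 3.22% ± 1.08 of the summed FPKM of the 3 vesicular glutamate transporters in WT and 3.71% ± 0.472 in KO (SD, n = 4), since Slc17a7 and Slc17a6, the transporters of neurons, were far higher. Cacna1d gave 65.0% ± 7.29 of the FPKM of the 4 L-type pore subunits in WT and 60.2% ± 3.68 in KO. Rims2 gave 52.5% ± 2.52 of Rims1 plus Rims2 in WT and 49.5% ± 3.97 in KO, a narrow range although the level of both genes varied widely. Otof held 24.7% ± 5.43 and 22.4% ± 3.43 of the 6 ferlins. Ctbp2 held 36.0% ± 9.86 of Ctbp1 plus Ctbp2 in WT and 30% ± 4.29 in KO, with 50% in WT1, where Ctbp1 was at 15 FPKM against 31.6 to 55.3 FPKM in the others. Cacnb2 held 21.9% ± 1.71 and 23.1% ± 1.99 of the 4 beta subunits, and Cabp2 13.1% ± 7.50 and 8.05% ± 0.532 of 5 CaBP genes. The shares of WT and KO libraries overlapped for all 7 of these members.

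The other genes of the synapse were compared by list. Over all 8 libraries, limma called 0 of 20 active zone and release genes, 0 of 14 tested calcium channel subunits, 0 of 14 tested paralogues of the members and 0 of 17 genes of vesicle retrieval and otoferlin insertion. Of these lists, 13, 9, 9 and 6 genes were below 0, and the median log2 fold changes were -0.03, -0.09, -0.07 and 0.04, so that the retrieval genes lay near the median of all tested genes. On the postsynaptic side, 0 of 9 glutamate receptor and receptor scaffold genes were called, and all 9 were below 0, with a median of -0.35. Without WT1, 7 of these 9 were called as lower, as were 4 of the 20 active zone genes, 3 of the 14 channel subunits, 3 of the 14 paralogues and 1 of the 17 retrieval genes, where 7.4% of all tested genes were. Of the 10 brain markers, 5 were called as lower in that comparison and all 10 were below 0, with a median of -0.89. Gria1, an AMPA receptor subunit, had a ratio of 4.81 between WT2, WT4 and KO4 and the other 5 libraries, and Unc13c, a priming factor of the active zone, had 3.30. The cell type lists showed medians of 0.01 for the hair cell reference genes, -0.06 for 7 outer hair cell markers, 0.04 for spiral ganglion neuron markers, 0.06 for 5 Schwann cell markers and -0.27 for the 10 brain markers, with 0 called in each.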

How the data were processed

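Cochlear RNA was analysed in 4 WT and 4 KO libraries for miR-29a, grouped by the genotype and number in the sample labels. Strand-specific libraries were made after removal of ribosomal RNA. Read pairs were mapped with Hisat2 by the authors, who deposited 1 FPKM value for each gene in each library. The program and annotation behind the FPKM are not given in the sources used here. Of 21760 gene identifiers in GENCODE M21, 19771 had the same GRCm38 locus in the table, although the labels name mm9, so coordinates are given as GRCm38. Of the members, 7 had the same locus, and the loci of Cacna1d and Ctbp2 end further on in the table. No per-sample column was left unmapped. Hisat2 and the authors' count test were not repeated, since counts were not used here, and depth was known only as a ratio between libraries.

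The log2 of FPKM + 0.1 was fitted with limma 3.58.1 (R 4.3.3) with genotype as the factor and a variance trend, for genes with a mean of at least 0.5 FPKM. Calls were made at an unadjusted two-sided p under 0.05, and adjusted p were computed over all tested genes. Fold changes on this scale understate those of low genes. Single values were compared by exact two-sided permutation over libraries. The fit was tested on simulated data. Named genes were all 9 members, listed genes that passed the threshold (at most 4 per list) and the 4 genes most like Otof and Bsn. The Rims1, Unc13c, Gria1, Ctbp1, Slc17a6, Slc17a7 and single marker values were chosen after they were seen. The members and lists were chosen with earlier results of these data known. Alternatives were a pseudocount of 1, other filters on low values, median-ratio, quantile and hair cell scaling, no variance trend, a replicate block, the 6 libraries with numbers 1 to 3, and leaving out each library. For values relative to the hair cell genes, the outer hair cell markers were a further reference. The reference without Cdh23 and Barhl1 was used as well but was not planned.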

Additional observations from a re-analysis of the deposited data

Results flagged for a closer look

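Of 60 groups of 4 libraries looked at (members, shares and list levels), 7 had a library far from the other 3 by Dixon's gap test, which chance gives in about 1 of 20 groups. Rims2 was at 17.0 FPKM in KO4, against at most 6.92 FPKM in the other KO libraries, and KO4 was the KO library with high Gabra6. Cacnb2 was at 6.31 FPKM in WT1, against 11.8 FPKM or more in the other WT libraries. The Slc17a8 share of the vesicular glutamate transporters was 4.82% in WT1, the highest of the WT libraries, where Slc17a7 was at 7.96 FPKM. WT1 also had the lowest mean log2 level of the WT libraries for active zone and release genes (3.10), member paralogues (0.607) and vesicle retrieval and otoferlin insertion genes (4.48). KO4 had the highest mean log2 level of the KO libraries for postsynaptic glutamate receptor genes (3.47).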

How the results depend on the processing

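Of 162 repeats of the members' fold changes under other settings, 146 kept their direction and their side of the threshold, 4 passed it newly (all without WT1) and 12 turned sign. The number of genes called went from 767 to 347 to 2922 when single libraries were left out. It was 2922 without WT1, 377 without KO2 and 347 without KO3. The number of members called was 0 to 4 in the same repeats, and 0 in every other setting tried. At an adjusted limma p under 0.05, 3 genes passed with no filter on low values. With the filter, 1 gene passed in the 6 libraries with numbers 1 to 3, 1 without WT4 and 1 in the 5 libraries with low Gabra6. None passed in any other setting. Called genes were higher in KO in 90.1% of cases as deposited, 52.7% after median-ratio scaling (403 higher and 361 lower) and 40.9% after quantile normalization (378 and 547), and the median of all tested genes moved from 0.10 to 0.00 and -0.04. All 9 members were then below 0. The log2 fold change of Slc17a8 turned to -0.011 with a pseudocount of 1, -0.077 with median-ratio scaling and -0.206 with quantile normalization, and ranged from -0.284 to 0.212 when single libraries were left out. Ctbp2 turned to -0.042 and -0.033 under median-ratio and quantile scaling. Cabp2 ranged from -0.383 to 0.014 when single libraries were left out. In the same repeats the other members ranged from -0.944 to -0.029 (Rims2), -0.658 to -0.036 (Bsn), -0.638 to -0.209 (Pclo), -0.475 to -0.170 (Cacna1d), -0.434 to -0.121 (Cacnb2), -0.432 to -0.046 (Otof) and 0.005 to 0.120 (Ctbp2). In the 5 libraries with low Gabra6, chosen after seeing the data, Bsn and Rims2 turned to 0.121 and 0.115. Relative to the hair cell genes, 0 to 1 members had an exact permutation p under 0.05 when single libraries were left out, Otof without WT2 being the one. On that scale Slc17a8 ranged from -0.025 to 0.095 and Ctbp2 from -0.068 to 0.264, and Ctbp2 was at -0.006 in the 6 libraries with numbers 1 to 3. The cause of these changes was not tested.

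WT and KO libraries share replicate numbers, but deviations of same-numbered libraries correlated at 0.419, -0.24, -0.17 and 0.21 for numbers 1 to 4, so the numbers were not taken as pairs. In the fit with a replicate block, 838 genes and 0 members were called. FPKM give no counting error, so low members such as Slc17a8 and Cabp2 may carry more of it than their spread over libraries shows.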

Other observations

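Among the marker lists of other tissues, limma called Hbb-bt and Alas2, genes of red blood cells, Mylpf, a light chain of fast muscle, and Col1a1 and Sost, genes of bone cells, all higher in KO. Of all tested genes, 4.61% were called higher in KO. Col1a1, the main collagen of bone, was at 145, 241, 64.1 and 239 FPKM in WT1 to WT4 and at 282, 424, 372 and 418 FPKM in KO1 to KO4, with no overlap (log2 fold change 1.28 ± 0.42, limma adjusted p = 0.947). Sost, an inhibitor of bone formation made by osteocytes, was at 0.128 FPKM in WT3 and at 8.09 to 15.7 FPKM in the other WT libraries, and at 13 to 50.6 FPKM in the KO libraries (limma adjusted p = 0.947). Mylpf was at 43.5 FPKM in KO3 and at most at 4.52 FPKM elsewhere (limma adjusted p = 0.947). Hbb-bt was at 124 FPKM in WT3 and at 602 FPKM or more in all others (limma adjusted p = 0.947), and Alas2 at 5.08 FPKM in WT3 and 31.9 FPKM or more in all others (limma adjusted p = 0.947). The median log2 fold change was 2.07 for the 12 marrow and blood markers, 2.71 for 7 muscle markers, 1.003 for 7 bone markers and 0.63 for the 6 pituitary markers that passed the filter, of 9 listed. Without WT1 the median of the pituitary markers turned to -0.35, with 5 of 6 below 0, that of the marrow and blood markers was 3.29, with 12 of 12 called higher, and 5 of the 7 bone markers were called higher. In that fit, 1810 of 15019 tested genes were called higher. Lhb, a listed pituitary marker, was at 0 in every library and was not tested. None of these genes belongs to the ribbon synapse, and their part in the members' values was not tested.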
